A study of Mus musculus with 6 samples.

Results

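The STAT genes encode latent cytoplasmic transcription factors. Of this family, 6 genes were followed here (Stat2, Stat3, Stat4, Stat5a, Stat5b and Stat6), taken by symbol from the 24346 gene symbols in the tables, and all 6 were present. RNA sequencing was done on luminal cells, the secretory epithelium of the prostate gland, sorted by flow cytometry from C57BL/6 mice aged 4 months. The 3 CSF1 libraries came from mice with a mouse Csf1 transgene driven by the rat probasin promoter, an androgen-responsive promoter of the prostate luminal epithelium itself. The 3 WT libraries came from wild-type littermates. Titles in both groups carry the numbers 3, 5 and 8, used here as replicate names, and the labels do not say whether each library came from its own animal, so p-values cover no more than the spread between these 6 libraries, which may be technical.

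Cytokine receptors carry Janus kinases, which phosphorylate STAT proteins on a tyrosine when a ligand binds. The phosphorylated STATs pair through their SH2 domains, enter the nucleus and bind DNA, most often at a palindromic element with TTC and GAA as its arms. Members differ in the receptors that use them. STAT2 works with the partner protein IRF9 downstream of type I and type III interferons. STAT3 is used by interleukin 6 and the other cytokines that signal through gp130, and also by interleukin 10. STAT4 is used mainly by interleukin 12 and 23 receptors in T cells, natural killer cells and some myeloid cells. STAT5A and STAT5B are used by prolactin, growth hormone, GM-CSF and the interleukin 2 family, and STAT6 by interleukins 4 and 13. Phosphorylation was not measured, so all values below are transcript levels.

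The start sites matter for the values that follow, because the tables list separate transcripts that begin at different places. Windows of 250 bases before the RefSeq gene start (GRCm38.p6, the assembly series to which mm10 belongs) were read from RefSeq, with 9 windows for the 6 genes. They are shown for Stat2, with its interferon-type element, for Stat3, the most abundant member, and for the paired starts of Stat4 and Stat5b, where 1 start carried most or all of the signal. Sequences run 5′ to 3′ on the strand of the gene, and capitals mark matches to the motifs described after them.
Stat2 (chr10:128270248-128270497, plus strand): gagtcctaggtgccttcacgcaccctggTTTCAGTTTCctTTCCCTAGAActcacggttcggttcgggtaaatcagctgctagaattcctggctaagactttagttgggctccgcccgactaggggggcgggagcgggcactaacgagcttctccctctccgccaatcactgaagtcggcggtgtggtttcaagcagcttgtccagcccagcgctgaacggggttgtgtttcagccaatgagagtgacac
Stat3 (chr11:100939541-100939790, minus strand): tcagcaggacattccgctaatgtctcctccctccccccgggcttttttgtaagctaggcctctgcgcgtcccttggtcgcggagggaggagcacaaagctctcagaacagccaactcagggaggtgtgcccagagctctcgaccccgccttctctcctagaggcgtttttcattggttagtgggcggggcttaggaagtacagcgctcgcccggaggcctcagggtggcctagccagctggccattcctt
Stat4, upstream start of NM_001308266 (chr1:51986898-51987147, plus strand): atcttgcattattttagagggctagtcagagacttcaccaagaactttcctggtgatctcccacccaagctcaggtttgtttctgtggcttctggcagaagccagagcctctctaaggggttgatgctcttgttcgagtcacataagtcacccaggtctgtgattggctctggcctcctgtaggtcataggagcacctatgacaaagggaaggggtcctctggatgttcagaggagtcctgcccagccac
Stat4, downstream start of NM_011487 (chr1:52007990-52008239, plus strand): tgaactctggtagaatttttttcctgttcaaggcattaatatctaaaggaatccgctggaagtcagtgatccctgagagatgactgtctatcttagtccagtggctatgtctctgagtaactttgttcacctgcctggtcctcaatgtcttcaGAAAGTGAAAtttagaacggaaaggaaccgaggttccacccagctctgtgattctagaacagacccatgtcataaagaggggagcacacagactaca
Stat5b, start of NM_001113563 (chr11:100850582-100850831, minus strand): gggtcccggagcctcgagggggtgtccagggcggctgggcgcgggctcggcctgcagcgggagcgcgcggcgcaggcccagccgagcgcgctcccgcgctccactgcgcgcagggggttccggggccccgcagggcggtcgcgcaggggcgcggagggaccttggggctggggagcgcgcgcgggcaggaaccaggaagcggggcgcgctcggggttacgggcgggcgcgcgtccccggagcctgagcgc
Stat5b, start of NM_011489 (chr11:100822571-100822820, minus strand): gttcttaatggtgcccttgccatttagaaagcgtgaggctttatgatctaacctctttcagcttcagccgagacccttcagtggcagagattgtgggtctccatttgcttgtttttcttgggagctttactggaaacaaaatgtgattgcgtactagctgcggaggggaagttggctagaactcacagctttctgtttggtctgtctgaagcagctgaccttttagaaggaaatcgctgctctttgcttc

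Each window was searched on both strands for TTCNNNGAA, the common STAT dimer element, for the same arms with 1 more base between them, the wider spacing favoured by STAT6, and for GAAA repeated with NN between the copies, the core of the interferon-stimulated response element. No STAT window held TTCNNNGAA, which 7.02% of all 32851 RefSeq windows of this length held. The wider element was in the Stat2 window, 210 bases before the start, and in 5.85% of all windows. The interferon-type core was in 2 of the 9 STAT windows, against 2.98% of all windows. In Stat2 it lay 222 bases before the start on the minus strand, next to the wider STAT element without overlapping it, and in Stat4 it lay 97 bases before the downstream start. The RefSeq starts of Stat2 and Stat3 were 78 and 29 bases from those of the listed transcripts, and that of the first Stat5b window was 4 bases away. For NM_011488 of Stat5a the distance was 305 bases. The window searched there lies after the listed start and not before it. These matches describe letters and not bound sites.

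The members lie on 3 chromosomes in mm10. Stat5b (chr11:100780731-100850585), Stat5a (chr11:100859351-100885169) and Stat3 (chr11:100886810-100939511) are neighbours, with gaps of 8765 and 1640 bases between their listed transcripts. Stat6 (chr10:127642986-127660987) and Stat2 (chr10:128270576-128292849) share chromosome 10, and Stat4 (chr1:51987148-52107189) stands alone. In GENCODE M21, also on GRCm38, 72 exon bases of Stat3 and Stat5a overlap on opposite strands, as do 40 of Stat6 and Nab2. The library kits named in the labels do not mark strand, so reads in those bases cannot be assigned by strand. The listed transcripts of Stat3 and Stat5a do not overlap each other, so for that pair the overlap is one of GENCODE exons. Stat5a and Stat5b share 608 windows of 50 identical bases, 15.6% of those of Stat5a and 11.1% of those of Stat5b, so part of their reads could be split between them. No other pair of the 6 genes shared such a window.

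As a check of the labels, Csf1 lay between 1082 and 1678 FPKM in CSF1 libraries and between 1.54 and 3.98 FPKM in WT libraries. FPKM divides the fragments of a transcript by its length and by the library's total, so levels of different genes can be set side by side. The CSF1 libraries were the deeper ones, with a mean read depth of 4.17 to 5.01 per FPKM, against 2.72 to 3.50 in WT. All 10 luminal markers looked up were above the expression filter, with Krt8 between 1408 and 2334 FPKM in CSF1 libraries and between 1050 and 1721 FPKM in WT libraries. Markers of other cells were also higher in CSF1. The sum of 14 macrophage and monocyte markers was 745, 924 and 2959 FPKM in CSF1 replicates 3, 5 and 8, against 26.8, 32.6 and 117 FPKM in WT, and all 14 passed the test as higher. Summed over 16 lymphocyte and natural killer cell markers, the level was 11.4, 10.9 and 37.3 FPKM in CSF1 and 1.37, 2.77 and 1.86 FPKM in WT, and 4 of these markers were at 0 in every WT library. Sums for 8 dendritic cell markers were 6.89, 8.99 and 34.0 FPKM in CSF1 and 1.38, 0.596 and 1.28 FPKM in WT. CSF1 replicate 8 had the highest sum in all 3 lists, and also for 6 neutrophil markers, at 1.40, 4.12 and 32.3 FPKM in CSF1 and at 0, 0.0930 and 0 FPKM in WT. All 7 tested stromal markers, all 3 tested endothelial markers and 5 of 6 tested basal cell markers rose. Of all tested genes 24.9% were called higher. The 3 endothelial markers, most of the stromal ones and several macrophage ones averaged under 1 FPKM in WT. These met the expression filter only through their CSF1 level, which favours a higher call. Stromal sums were 157, 224 and 109 FPKM in CSF1 and 7.31, 9.48 and 11.8 FPKM in WT, and basal sums 553, 538 and 844 FPKM in CSF1 and 49.3, 65.8 and 68.3 FPKM in WT. Of the luminal markers 2 rose, 1 fell and 7 did not pass. The part of these cells in the STAT values was not tested, and in RNA of a sorted population fewer cells of a type cannot be told apart from less RNA per cell.

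Summed over the family, STAT transcripts had a 1.96-fold higher mean in CSF1 than in WT libraries. Stat3, Stat6, Stat2 and Stat5a rose, Stat5b lay higher without passing the test, and Stat4 was measured in CSF1 libraries alone. Genes averaging 1 FPKM or more over the 6 libraries, 10951 in all, were tested with limma on log2(FPKM + 1), and a gene passed below a Benjamini-Hochberg adjusted p of 0.05. Of the members, 5 passed that expression filter and 4 of these were called higher, where 24.9% of all tested genes were called higher and 7.47% lower. The 3 CSF1 libraries lay above the 3 WT libraries in all 5, which was so for 34.7% of all tested genes. The median change of all tested genes was 0.17 in log2 units, and the 5 members ran from 0.70 to 1.01. On an exact two-sided permutation test each of the 6 members gave p = 0.1, the smallest that 3 libraries against 3 can give.

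**Figure D1:**
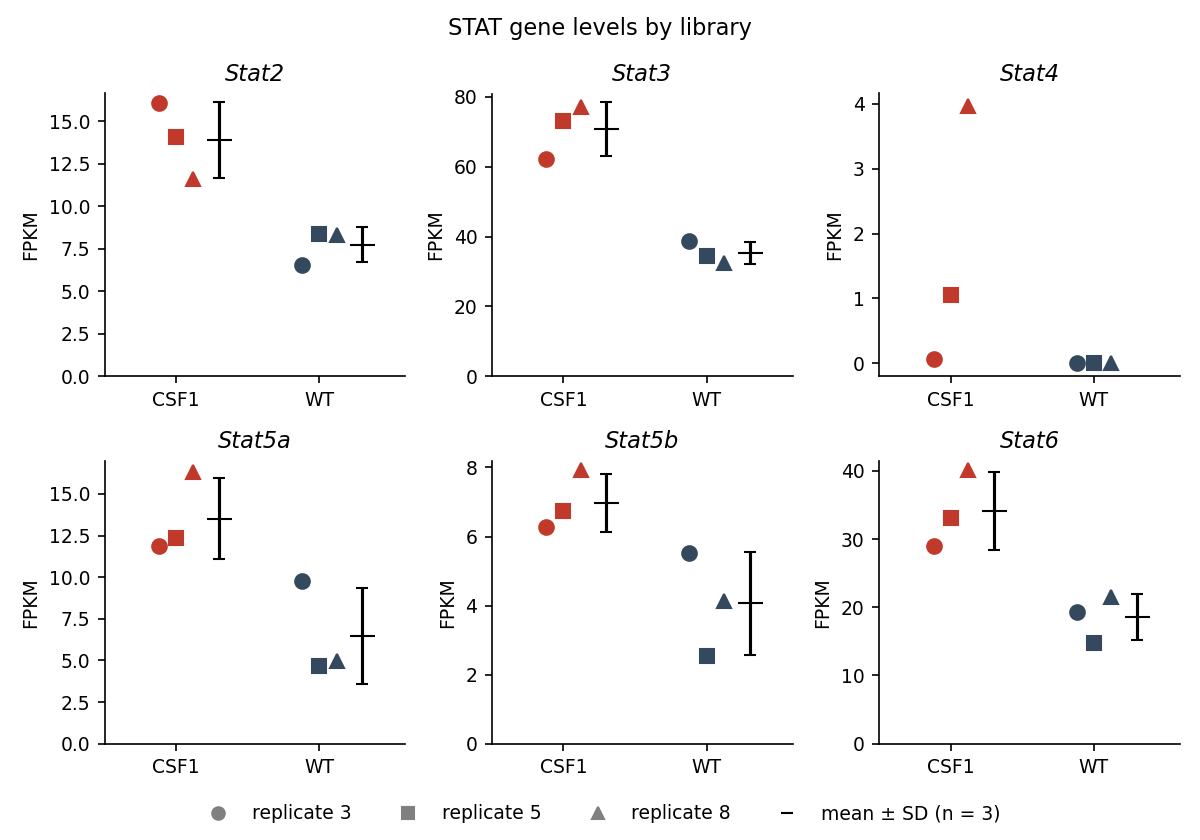
FPKM of the 6 STAT genes in each library, CSF1 left of WT, with 1 panel and 1 linear scale per gene. Symbols are replicates 3, 5 and 8, and black bars are the mean ± SD of 3 libraries, left out for Stat4 because it is listed at 0 in WT. The CSF1 libraries lie above the WT libraries in every panel, and WT replicate 3 is the highest WT library for Stat5a and Stat5b.

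Stat3 was the most abundant member in all 6 libraries. Its level was 62.1, 73.1 and 77.2 FPKM in CSF1 replicates 3, 5 and 8, against 38.6, 34.3 and 32.5 FPKM in WT replicates 3, 5 and 8. The groups did not overlap. The log2 change was 0.99 ± 0.14 (SE, n = 3 per group, limma adjusted p = 0.00101), and the difference within each title number was 0.67, 1.07 and 1.22.

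The table splits Stat3 into 3 transcripts that share 1 start. NM_213659 encodes the full-length alpha form of 770 codons, NM_213660 differs from it by a single codon (769), and NM_011486 codes for 722 codons, the length of the shorter beta form, which lacks the C-terminal activation domain. NM_213659 was at 36.5, 51.3 and 54.5 FPKM in CSF1 and at 26.0, 19.1 and 25.8 FPKM in WT, and it rose (log2 change 0.97 ± 0.20, limma adjusted p = 0.0120 over 12785 transcripts). At the transcript level 19.7% of all tested transcripts were called higher. NM_011486 was at 12.2, 8.32 and 14.1 FPKM in CSF1 and at 8.28, 8.41 and 6.71 FPKM in WT, where the groups overlapped (limma adjusted p = 0.138). Its share of Stat3 was 19.7%, 11.4% and 18.3% in CSF1, against 21.4%, 24.5% and 20.6% in WT. Every CSF1 library had a smaller share than every WT library, a difference of -5.75 percentage points (exact permutation p = 0.1, the smallest possible, and 0.5 after adjustment over the 5 transcript shares computed). NM_213660 ran from 8.60 to 13.6 FPKM in CSF1 and from 0 to 6.82 FPKM in WT (limma adjusted p = 0.0977, and 0.0444 with the replicate block). The value of 0 in WT replicate 8 is an estimate for a transcript that differs from its neighbour by a single codon, so the split between these 2 is uncertain.

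Stat6 was second in every library. Its single listed transcript reached 28.9, 33.2 and 40.2 FPKM in CSF1 replicates 3, 5 and 8, against 19.3, 14.8 and 21.5 FPKM in WT, with no overlap. It rose by 0.85 ± 0.18 in log2 units (SE, n = 3 per group, limma adjusted p = 0.00818). Within title numbers the differences were 0.56, 1.11 and 0.87.

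Stat2 had 16.1, 14.1 and 11.6 FPKM in CSF1 replicates 3, 5 and 8, against 6.53, 8.37 and 8.28 FPKM in WT. It rose by 0.77 ± 0.17 in log2 units (limma adjusted p = 0.01002). The order of the CSF1 libraries was its own. Replicate 3 was the highest CSF1 library for Stat2 and the lowest for each of the other 5 members, and replicate 8 was the lowest for Stat2 and the highest for the rest. With quantile normalization the change of Stat2 was 0.46 and did not pass (limma adjusted p = 0.0568).

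Stat5a was at 11.9, 12.4 and 16.3 FPKM in CSF1 and at 9.78, 4.69 and 4.95 FPKM in WT. WT replicate 3 stood well above the other 2 WT libraries and closest to the CSF1 range. The log2 change was 1.01 ± 0.26 (limma adjusted p = 0.0186), but the difference within number 3 was 0.25, against 1.23 and 1.54 within numbers 5 and 8. The call rested on several libraries and on the scaling. It was lost without CSF1 replicate 8, without WT replicate 5 or without WT replicate 8 (limma adjusted p = 0.0532, 0.0742 and 0.0681), and without both libraries numbered 8 (0.125), over a range of 0.00314 to 0.125 in the alternatives tried. Both of its transcripts were seen. NM_011488 was at 6.87, 7.24 and 9.14 FPKM in CSF1 and at 5.11, 3.05 and 3.57 FPKM in WT (limma adjusted p = 0.0239). NM_001164062, from a start farther downstream, was at 5.00, 5.12 and 7.20 FPKM in CSF1 and at 4.67, 1.64 and 1.38 FPKM in WT (limma adjusted p = 0.0722).

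Stat5b stood at 6.29, 6.73 and 7.92 FPKM in CSF1 and at 5.51, 2.55 and 4.12 FPKM in WT. The groups did not overlap, but the log2 change of 0.70 ± 0.24 did not pass (limma adjusted p = 0.0534). It passed without WT replicate 3 (limma adjusted p = 0.0251), the highest WT library here as for Stat5a, and with array weights (0.0142), while other alternatives reached 0.324. All of this signal was assigned to NM_001113563. NM_011489 was listed at 0 in all 6 libraries, with upper Cufflinks bounds from 0.00792 to 0.0146 FPKM, although its own start lies inside the gene's locus. The 250 bases before the used start are 82.0% G or C, and those before the unused start 46.4%. The Stat5a to Stat5b ratio of FPKM was 1.89, 1.84 and 2.06 in CSF1 and 1.78, 1.84 and 1.20 in WT, so it overlapped (exact permutation p = 0.2). With a pseudocount of 1 the log2 ratio was 0.31 higher in CSF1 (exact permutation p = 0.1), and 0.15 higher without WT replicate 8. Summed, both genes were at 18.2, 19.1 and 24.3 FPKM in CSF1 and at 15.3, 7.24 and 9.07 FPKM in WT.

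**Figure D2:**
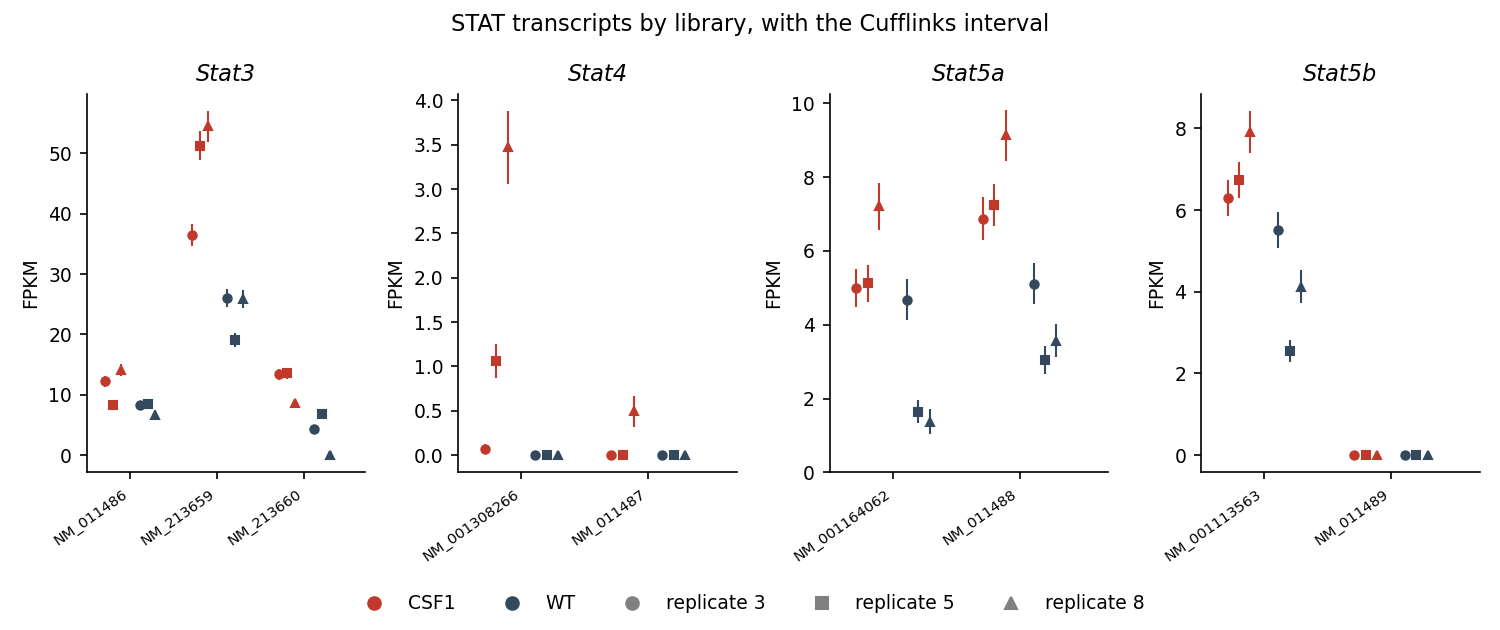
FPKM of each listed transcript of Stat3, Stat4, Stat5a and Stat5b by library, CSF1 in red left of WT in dark blue, with symbols for replicates 3, 5 and 8 and vertical bars for the Cufflinks interval of each estimate. NM_213659 carries most of Stat3 in every library, and NM_011489 of Stat5b is at 0 throughout.

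CSF1 replicates 3, 5 and 8 held 0.0685, 1.06 and 3.96 FPKM of Stat4, so replicate 8 alone carried most of the signal, and the gene was listed at 0 in every WT library. Its mean over all libraries was under the filter of 1 FPKM, and it had no test in the main fit. In a fit without that filter, over 17920 genes, the difference of 1.15 ± 0.53 did not pass (limma adjusted p = 0.193). With the filter kept and CSF1 replicate 3 left out, Stat4 passed (difference 1.68, limma adjusted p = 0.0152). It met the filter there only through its CSF1 level, with WT at 0, so that call adds no support. Without CSF1 replicate 8 the difference was 0.57, with no test. The upstream transcript NM_001308266 carried 0.0685, 1.06 and 3.47 FPKM, and the downstream NM_011487, whose window holds the interferon-type core, was seen in CSF1 replicate 8 alone at 0.493 FPKM (Cufflinks interval 0.315 to 0.670).

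The leukocyte marker sums given above were highest in CSF1 replicate 8, as Stat4 was. From CSF1 replicate 3 to 5 the macrophage sum went from 745 to 924 FPKM, the dendritic cell sum from 6.89 to 8.99 FPKM. The neutrophil sum went from 1.40 to 4.12 FPKM, so these moved up with Stat4, and the lymphocyte sum did not. Stat4 was at 0.0685 FPKM in CSF1 replicate 3 and 1.06 FPKM in CSF1 replicate 5, while the lymphocyte sum was 11.4 FPKM in CSF1 replicate 3 and 10.9 FPKM in CSF1 replicate 5. Most single markers of the lymphocyte and dendritic cell lists were also highest in CSF1 replicate 8. Among those chosen here after their values were seen, Cd3g, of the T cell receptor complex, was at 2.19, 2.32 and 6.62 FPKM in CSF1, and Itgax, a dendritic cell and macrophage integrin gene, at 1.33, 1.62 and 6.79 FPKM. Zbtb46, a dendritic cell transcription factor gene, was at 2.22, 3.32 and 2.08 FPKM in CSF1, lowest in replicate 8, and Cd4 at 0.449, 0 and 0.397 FPKM. These were exceptions. Every other lymphocyte and natural killer cell marker was highest in CSF1 replicate 8, as was every dendritic cell marker except Zbtb46 and Flt3. Interleukin 12 and 23 receptor genes, the usual route to STAT4, stayed under the filter, with Il12rb2 at 0.158, 0.329 and 0.846 FPKM in CSF1 and at 0.0573, 0.136 and 0 FPKM in WT. The ligand gene Il12b, for the p40 subunit shared by both cytokines, rose to 2.29, 7.41 and 15.0 FPKM in CSF1, against 0.123, 0.212 and 0.786 FPKM in WT (log2 change 2.50, limma adjusted p = 0.00618). Its mean met the expression filter only through the CSF1 libraries. Of 6 STAT4 target genes, 2 were tested and neither passed. Furin, the most abundant of them, was at 13.2, 16.7 and 27.2 FPKM in CSF1 and at 9.99, 9.55 and 16.3 FPKM in WT (limma adjusted p = 0.141). With the replicate block it passed (limma adjusted p = 0.0200).

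**Figure D3:**
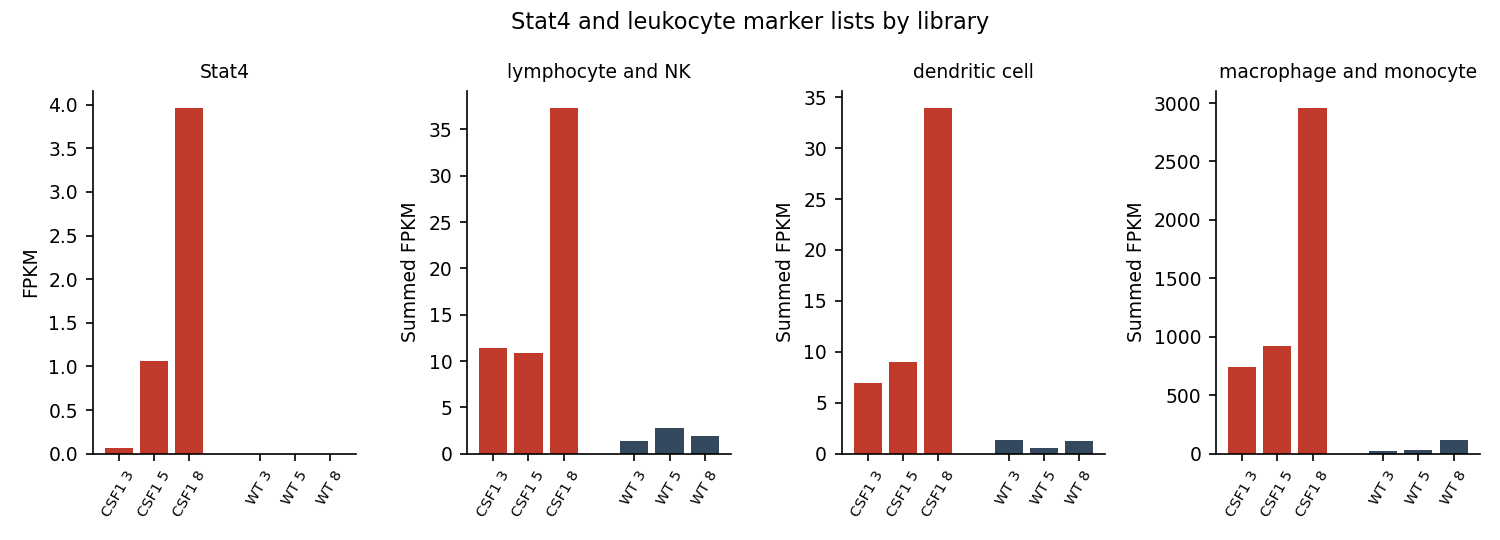
Stat4 FPKM and the summed FPKM of 3 leukocyte marker lists in each library, CSF1 in red left of WT in dark blue. CSF1 replicate 8 is highest in all 4 panels, and Stat4 is at 0 in the 3 WT libraries.

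Added together, the 6 genes reached 125, 141 and 157 FPKM in CSF1 replicates 3, 5 and 8, against 79.8, 64.8 and 71.4 FPKM in WT. The order of levels was Stat3, Stat6, then Stat2 and Stat5a, then Stat5b and Stat4. Stat2 and Stat5a changed places, since Stat5a was the higher of them in CSF1 replicate 8 and in WT replicate 3, so they did not differ beyond their spread. Stat3 made up 50.2% ± 1.58 of the pool in CSF1 and 49.0% ± 3.73 in WT (SD, n = 3 each). Stat6 followed with 24.1% ± 1.30 in CSF1 and 25.7% ± 3.83 in WT. Stat2 held 10.1% ± 2.72 in CSF1 and 10.9% ± 2.44 in WT. Stat5a held 9.55% ± 0.801 in CSF1 and 8.82% ± 2.99 in WT, and Stat5b 4.95% ± 0.139 in CSF1 and 5.54% ± 1.501 in WT. For these 5 shares the exact permutation p lay between 0.6 and 0.8 (0.8 after adjustment over the 6 shares), and the largest difference was -1.64 percentage points, for Stat6. A share within a library does not depend on the factor that scales the library. Stat4 was at 0.0547%, 0.754% and 2.52% of the pool in CSF1.

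**Figure D4:**
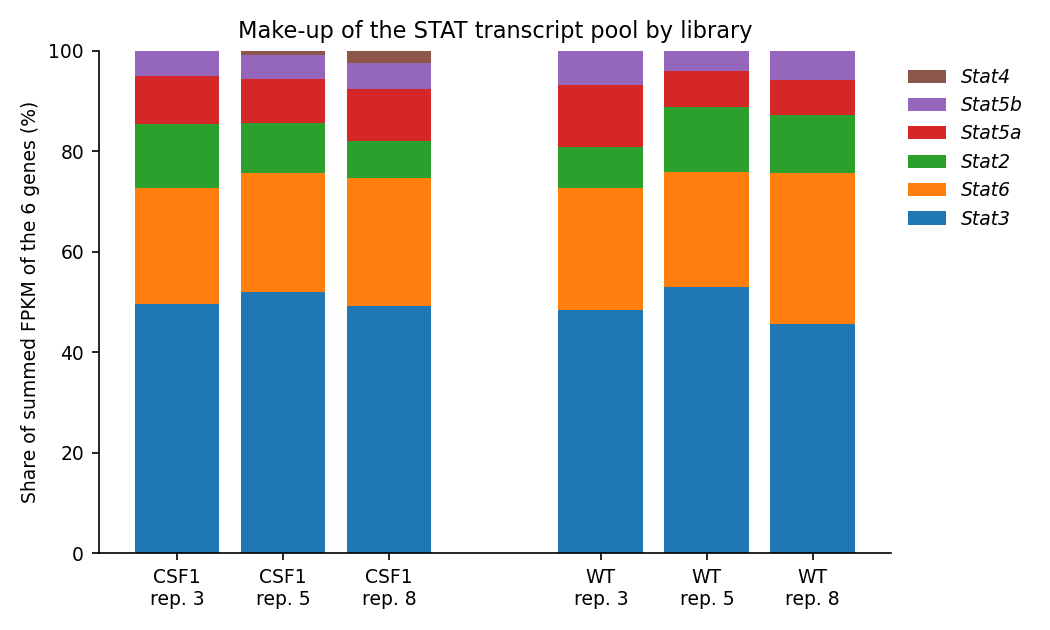
Share of the summed FPKM of the 6 STAT genes taken by each gene, in percent, with CSF1 libraries left of WT libraries. Stat3 fills close to the same part of every bar, from 45.6% to 53.0%, and Stat4 is visible in CSF1 replicates 5 and 8.

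The rest of the pathway was read from 14 lists with 127 genes, of which 95 were tested. In the CSF1 libraries 69 were called higher and 1 lower, with a median log2 change of 1.63. That is 72.6% and 1.05%, against 24.9% and 7.47% of all tested genes. List counts below from the same fit stand beside these 2 shares. With quantile normalization 1694 of 10951 tested genes were called higher and 2362 lower, and with the replicate block 2883 and 890. The lists were chosen with earlier results of these data known. Of the called genes, 54 kept their call under each of 3 other scalings, and all 70 kept their sign. A gene near 0 in WT could be tested only through its CSF1 level, which tilts these counts upward, and the leukocyte marker sums given above moved with many of them. Among the genes named below, Jak3, Il4ra, Il2rg, Csf2rb, Ifnb1, Osm, Ccnd2 and Saa3 averaged under 1 FPKM in WT and met the filter in this way.

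Of the 4 Janus kinases, which are bound to the receptors, 3 rose. Jak1 was the most abundant, at 32.9, 37.6 and 33.2 FPKM in CSF1 and 17.9, 19.3 and 21.2 FPKM in WT (log2 change 0.80 ± 0.13, limma adjusted p = 0.00250). Jak2, used by gp130, prolactin and growth hormone receptors, was at 16.5, 15.7 and 24.2 FPKM in CSF1 and at 5.77, 3.88 and 4.22 FPKM in WT (log2 change 1.81, limma adjusted p = 0.000393). Jak3, which pairs with the common gamma chain in leukocytes, was at 2.95, 2.19 and 4.11 FPKM in CSF1 and under 0.1 FPKM in each WT library (log2 change 1.91, limma adjusted p = 0.000540). Its mean met the expression filter only through the CSF1 libraries. Tyk2, at 5.44 to 6.09 FPKM in CSF1 and 3.66 to 5.30 FPKM in WT, did not pass (limma adjusted p = 0.166).

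Receptors differed in direction. Osmr and Il6st, which encode the oncostatin M receptor and gp130, rose, with log2 changes of 3.30 and 1.69 (limma adjusted p = 3.64e-05 and 7.94e-05). Il6st was at 16.6, 19.2 and 18.4 FPKM in CSF1 and at 5.04, 4.58 and 5.09 FPKM in WT. These were the only 2 of 5 tested gp130-family receptor genes to pass, and the most abundant, Il11ra1, was at 18.5 to 29.9 FPKM in CSF1 and 22.9 to 35.2 FPKM in WT (limma adjusted p = 0.191). Both tested interleukin 4 and 13 receptor genes rose. Il13ra1 was at 33.9, 34.0 and 39.6 FPKM in CSF1 and at 5.63, 3.84 and 4.81 FPKM in WT (log2 change 2.69, limma adjusted p = 1.71e-05), and Il4ra at 4.81, 8.42 and 11.9 FPKM in CSF1 and 0.411, 0.269 and 0.580 FPKM in WT.

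Among 8 tested receptor genes that signal through STAT5, 4 rose and 1 fell. Each of the 4 that rose averaged under 1 FPKM in WT. They met the filter only through their CSF1 level, which favours a higher call. The count that rose was 1 without CSF1 replicate 8, 2 without any 1 of the WT libraries, and 1 with quantile normalization. The one that fell was Prlr, the prolactin receptor gene and the most abundant of the list. It dropped to 31.4, 30.8 and 13.9 FPKM in CSF1, against 96.3, 71.1 and 116 FPKM in WT (log2 change -1.92 ± 0.31, limma adjusted p = 0.00213). This was the only lower call in all 14 lists, beside higher Stat5a in the same libraries. The largest rises were those of leukocyte receptor chains. Il2rg, the common gamma chain, was at 4.09, 6.94 and 21.8 FPKM in CSF1 and under 0.3 FPKM in WT, and Csf2rb, the common beta chain, at 1.19, 1.89 and 10.6 FPKM in CSF1 and under 0.2 FPKM in WT, both highest in CSF1 replicate 8. The ligand genes for prolactin and growth hormone were listed at 0 in all 6 libraries. In the interferon and interleukin 10 receptor list, which includes Irf9, 5 of 8 rose. Irf9, the partner of STAT2, was at 43.2, 38.2 and 52.8 FPKM in CSF1 and at 8.42, 13.4 and 14.0 FPKM in WT (log2 change 1.84, limma adjusted p = 0.000368), beside the 0.77 of Stat2 itself. Ifngr1 had a log2 change of 1.70, while Ifnar2, the most abundant, was at 44.1 to 49.6 FPKM in CSF1 and 33.2 to 45.8 FPKM in WT and did not pass (limma adjusted p = 0.186).

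Of 22 listed cytokine genes 12 were tested, and 11 of these rose, or 7 with quantile normalization. Osm, Lif, Il11, Il12b, Ebi3, Csf2, Tslp and Ifnb1 averaged under 1 FPKM in WT. They met the filter only through their CSF1 level, which favours a higher call. Il6 was at 87.0, 114 and 178 FPKM in CSF1 and at 8.58, 5.69 and 9.69 FPKM in WT (log2 change 3.79), and the interferon gene Ifnb1 at 12.4, 5.39 and 27.4 FPKM in CSF1 and 0.620, 0 and 0.860 FPKM in WT (log2 change 3.22). The SOCS genes encode inhibitors that feed back on the pathway. All 7 tested SOCS genes rose, with a median log2 change of 1.19, and 5 were called higher with quantile normalization. The other listed one, Socs7, was just under the filter with a mean of 0.99 FPKM and lay the other way, at 0.638, 0.452 and 0.586 FPKM in CSF1 and at 1.501, 1.797 and 0.967 FPKM in WT. In the fit without the filter it fell (log2 change -0.62, limma adjusted p = 0.0455). Socs3, a STAT3-induced inhibitor of gp130, was at 65.4, 58.7 and 98.0 FPKM in CSF1 and at 6.48, 5.19 and 7.21 FPKM in WT (log2 change 3.34, limma adjusted p = 2.08e-05). Socs2, also induced by STAT5, was at 5.77, 12.4 and 12.8 FPKM in CSF1 and at 2.02, 0.614 and 1.87 FPKM in WT (log2 change 2.16). Cish, a STAT5-induced gene, had the highest mean of the list, at 48.9, 52.3 and 62.0 FPKM in CSF1 and 33.8, 36.5 and 36.4 FPKM in WT (log2 change 0.59, limma adjusted p = 0.0106). Of 8 PIAS and phosphatase genes, which restrain STATs outside the SOCS loop, 2 rose, a share near the 24.9% of all tested genes, and the median of the list fell below 0 with quantile normalization (-0.11). These were the phosphatase genes Ptpn1 (log2 change 1.45) and Ptpn2 (1.03), while the 4 PIAS genes did not pass.

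**Figure D5:**
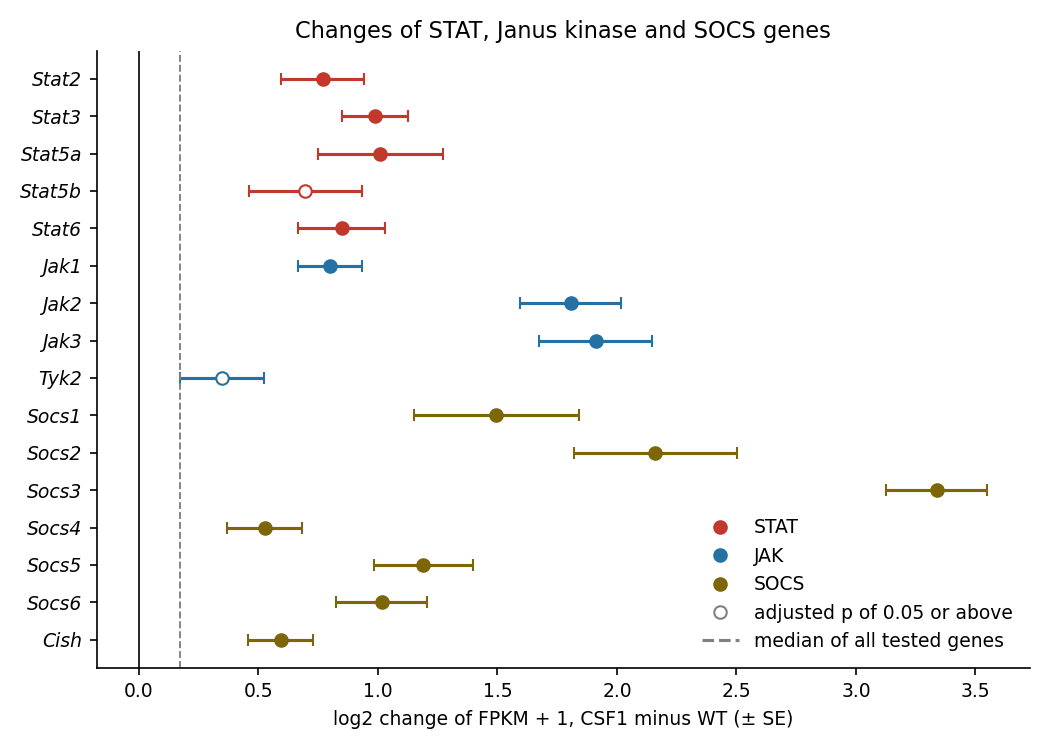
Log2 change of FPKM + 1, CSF1 minus WT, for the 5 tested STAT genes, the 4 Janus kinase genes and the 7 tested SOCS genes, with bars for the SE of limma. Filled points passed an adjusted p of 0.05, open points did not, and the dashed line is the median of all tested genes at 0.17. Socs3 lies farthest right at 3.34, and the STAT genes lie between 0.70 and 1.01.

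Target genes known from other tissues were counted by member, beside the 24.9% of all tested genes called higher. Some targets also stand in other lists, as Socs3 and Il4ra of STAT3 and Cish, Socs2 and Osm of STAT5 do. The counts by member are therefore not separate from those above. Of 14 targets of the STAT2 complex 13 rose, with a median log2 change of 2.31. The largest changes were those of Oasl2 (3.67) and Isg15 (3.50), and the most abundant, Cxcl10, was at 123, 96.4 and 324 FPKM in CSF1 and at 27.3, 26.2 and 33.3 FPKM in WT. Isg15 was at 120.4, 49.3 and 166 FPKM in CSF1 and at 11.7, 5.59 and 7.46 FPKM in WT, so CSF1 replicate 5 was the lowest CSF1 library for it, unlike for Stat2.

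Of 13 tested STAT3 targets 12 rose, with a median of 2.64. The acute-phase gene Saa3 and the antimicrobial lectin gene Reg3g had the largest changes, 7.38 and 5.78. Junb, the most abundant, was at 819, 729 and 827 FPKM in CSF1 and at 551, 554 and 525 FPKM in WT, and it rose (log2 change 0.54), although its call was lost under 2 of the 3 other scalings. All 10 tested STAT5 targets rose, with a median of 1.44, led by Ccnd2, for cyclin D2, at 19.3, 33.2 and 29.2 FPKM in CSF1 and 0.423, 1.33 and 0.688 FPKM in WT (log2 change 3.96), and by the cytokine gene Osm (2.34). With quantile normalization 7 STAT5 targets were called higher, and Bcl6 lost its call under each of the 3 other scalings. The milk protein gene Csn2, a classical STAT5 target of mammary gland, was at 0 in all 6 libraries. Of 8 tested STAT6 targets 4 rose, and 6 with the replicate block. Ccl11, for the eosinophil chemokine eotaxin, was at 18.2, 19.3 and 20.8 FPKM in CSF1 and at 1.495, 1.90 and 2.14 FPKM in WT (log2 change 2.85, limma adjusted p = 1.07e-05), and Arg1, for arginase 1, had a log2 change of 2.64. Retnla, the most abundant, was at 68.9, 42.9 and 290 FPKM in CSF1 and at 31.3, 7.37 and 60.1 FPKM in WT and did not pass (limma adjusted p = 0.110). With the replicate block it passed (limma adjusted p = 0.00220). Most of these genes also respond to other factors, and several are expressed by macrophages.

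The tested genes whose profiles lay nearest to each member were found by the distance of centred log2(FPKM + 1) over the 6 libraries, which share only the groups and their depth. For Stat3 they were Pdcd10, Smurf1 and Arap1 (Pearson's r = 0.993 for each). Pdlim7, Rnf2 and Ywhaz were nearest to Stat6 (r = 0.998, 0.997 and 0.993), and Slc25a30 and Pik3r1 were among those nearest to Stat2 (r = 0.985 and 0.981). Rras2, Sgms1 and Cxx1b were nearest to Stat5a (r = 0.998, 0.980 and 0.981), and Gm14005, Abhd2 and Arap2 to Stat5b (r = 0.999, 0.965 and 0.964). For Stat4 they were Spic, Pdcd1 and Hk3 (r = 0.991, 0.986 and 0.997), at 4.29, 4.61 and 5.95 FPKM in CSF1 replicate 8. All these genes were picked for their nearness. Their high r values, and the peak of these 3 in CSF1 replicate 8, come from that choice and are no further result.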

How the data were processed

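Isoform tables of 6 libraries were used as deposited. Per the submitters' processing notes, the authors used bcl2fastq 1.8.3, TopHat and Cufflinks with mm10, the last 2 with versions not stated in the sources read. Values and interval bounds are FPKM per the file headers, and the deposited coverage column is a signal, the mean read depth of a transcript. Fragment totals are not given, so the number of fragments behind a value is unknown.

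Transcript FPKM were added up by symbol. Genes that Cufflinks marked HIDATA or FAIL (9) were dropped, and the rest, at a mean of 1 FPKM or more, were tested with limma 3.58.1 in R 4.3.3 (intensity trend, two-sided, no block) on log2(FPKM + 1), which understates changes of low genes. The family total was given without the test planned for it, as a sum over chosen members. The steps were tested on simulated data. Exact permutation tests used scipy 1.17.1. The members and the lists were chosen with earlier results of these data known. Genes named from a list were the 2 called genes with the largest change and the most abundant one, beside all 4 Janus kinases. The 3 nearest profiles per member were also named, except 1 that is not reported here. Il12b, Socs7, genes whose call the block changed, the single markers, Prl, Gh and Csn2 were named after their values were seen.

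Deviations from group means correlated by 0.257, 0.111 and 0.182 between the libraries numbered 3, 5 and 8, all over 0.1, a pairing seen in the data and not stated by the labels. The reported tests are unpaired, and the fit with the number as a block was an alternative. Alternatives covered the pseudocount, the filter, scaling, failed-status genes, trend, array weights, the replicate block, each library left out and the dominant transcript.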

Additional observations from a re-analysis of the deposited data

How the results depend on the processing

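Under 19 alternatives, Stat3 and Stat6 kept their calls throughout, with log2 changes of 0.76 to 1.08 and 0.60 to 0.96. Stat2 kept its call in 18 and lost it with quantile normalization (0.46, adjusted p = 0.0568). Stat5a kept its call in 11. It was lost with no filter on low values (1.01, adjusted p = 0.0556), quantile normalization (0.67), median-ratio scaling (0.82), rescaling without the 5 most abundant genes (0.80), 3 left-out libraries, and without both libraries numbered 8 (0.74), an alternative chosen after seeing the data. Stat5b passed with array weights (0.87). With single libraries left out, changes ran from 0.85 to 1.31 for Stat5a, 0.46 to 0.90 for Stat5b and 1.15 to 1.68 for Stat4 where it could be tested. Stat4 met the filter in those fits only through its CSF1 level. Its untested difference was 1.20 without CSF1 replicate 5 and 0.57 without CSF1 replicate 8. In the fits with 1 library left out 3 to 5 members were called higher, beside 2053 to 2489 of 10830 to 11056 tested genes. The number of members called higher was 2 with quantile normalization, where 1694 of 10951 tested genes were called higher and 2362 lower. No member was called lower under any alternative. The share differences ran from -2.21 to 0.51 percentage points for Stat2, -0.49 to 3.21 for Stat3, -0.20 to 2.46 for Stat5a, -1.40 to 0.0915 for Stat5b and -3.05 to 0.54 for Stat6, so each of these 5 changed sign when 1 library was left out. The family total was 0.97 higher on the log2 scale, and 0.76 with median-ratio scaling. Pathway genes called higher numbered 45 with a mean of at least 5 FPKM, where fewer genes are tested. Those called lower numbered 2 with no filter, with median-ratio scaling and with rescaling, and 3 with quantile normalization. Scaling moved the balance of all called genes, of which 77.0% were higher on the deposited values. Quantile normalization gave 41.8%, median-ratio scaling 56.0% and rescaling 56.5%, and the median of all genes was -0.16, -0.01 and -0.02 under these 3. The medians of the gp130 receptor, PIAS and phosphatase, and STAT4 target lists fell below 0 with quantile normalization (-0.21, -0.11 and -0.02), and that of PIAS and phosphatases also with rescaling (-0.01). The replicate block changed no call of a STAT gene. It gained 1 STAT transcript (NM_213660) and, in the pathway lists, Furin, Retnla, Ccl22, Csf2ra and Il10ra, and it lost Il7. In it the Stat5a to Stat5b log2 ratio was 0.31 higher (exact sign-flip p = 0.25). Of the list counts above 0, 13 in number, 229 of 247 values under alternatives stayed within 1.5 times, and the count of STAT5 receptors called higher left that range most often. The causes of lost calls were not tested.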
